A study of Mus musculus with 4 samples.

Results

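HIF regulators and hypoxia targets outside glycolysis were followed in mouse embryonic stem cells after deletion of Cbx2, as 10 genes taken by name from a table of 22266: Hif1a, Vegfa, Bnip3, Bnip3l, Egln1, Egln3, Adm, P4ha1, Kdm3a and Ndrg1. All 10 were in the table, and 9 reached the mean of 1 TPM (a length-corrected share of transcripts) needed for testing, all but Adm. The OHT group held 2 libraries (day 2), from cells exposed for 48 hours to 4-hydroxytamoxifen (4-OHT) at 1.0 µM to remove Cbx2. The EtOH group held 2 libraries (day 0, genotype Wildtype), from cells of the same line given ethanol. Every library came from mESC CBX2fl/fl-HaloTag, a female PGK12.1 derivative whose Cbx2 alleles are both floxed and tagged, grown on gelatin in serum with leukemia inhibitory factor, and all carry the same batch label. The recombinase is not named in the labels, and no library combines 4-OHT with intact Cbx2, so the deletion, the drug and the time in culture cannot be told apart. Nothing in the labels says that replicates came from separate cultures, so a p-value covers no more than the scatter of these 4 libraries, possibly only technical scatter. The 10 genes were chosen by name as known HIF genes, but selected on the OHT against EtOH difference as well, since it was in view when they were picked, so their differences are given as a description. Where a fit's threshold is named for them, it is a count beside the share of all genes and supports nothing.

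Hypoxia-inducible factor (HIF) is a dimer of an oxygen-regulated alpha subunit, of which Hif1a encodes the most widely expressed, and a stable beta subunit. In oxygen, prolyl hydroxylases of the Egln family mark the alpha subunit for the von Hippel-Lindau ubiquitin ligase, so HIF is set largely at the protein level, which was not measured here. When oxygen or hydroxylase activity drops, HIF binds short DNA elements with the core letters ACGTG or GCGTG and raises genes of glycolysis, vessel growth, mitochondrial turnover, matrix formation and its own feedback hydroxylases. Several of these genes also answer to other signals, so their mRNA level alone does not report HIF.

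The RefSeq promoter windows (GRCm38.p6, 250 bases before and 50 after the start) were searched for ACGTG and GCGTG on both strands, and 8 of the 10 genes had at least 1 window. Bnip3l and Ndrg1 were not matched. At least 1 of these words stood in 8 of the 11 windows (72.7%), against 43.8% of all 32851 windows, a difference that was not tested. All 8 genes with a window had a match in at least 1, against 46.7% of all genes with a window. For Hif1a and Vegfa the matching window was that of an internal start. The genes were chosen as known HIF genes, so nothing is read from either share. The stretches upstream of the annotated starts are shown for the 5 genes whose OHT libraries were both higher than both EtOH libraries, a choice made on the values. They are written along the gene's strand with every match in capitals.
Bnip3: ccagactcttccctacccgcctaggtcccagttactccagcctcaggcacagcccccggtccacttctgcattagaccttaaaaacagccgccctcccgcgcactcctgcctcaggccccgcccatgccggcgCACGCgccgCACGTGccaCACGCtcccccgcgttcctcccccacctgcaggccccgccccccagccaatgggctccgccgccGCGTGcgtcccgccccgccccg
Egln3: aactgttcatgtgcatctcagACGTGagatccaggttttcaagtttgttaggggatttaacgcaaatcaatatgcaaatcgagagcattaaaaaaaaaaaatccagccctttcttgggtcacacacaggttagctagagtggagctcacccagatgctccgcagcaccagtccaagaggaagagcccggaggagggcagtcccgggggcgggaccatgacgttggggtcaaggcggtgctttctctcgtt
Egln1: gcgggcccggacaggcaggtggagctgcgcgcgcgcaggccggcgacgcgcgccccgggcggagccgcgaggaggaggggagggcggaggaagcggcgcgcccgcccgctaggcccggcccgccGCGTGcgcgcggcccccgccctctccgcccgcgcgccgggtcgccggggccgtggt
P4ha1: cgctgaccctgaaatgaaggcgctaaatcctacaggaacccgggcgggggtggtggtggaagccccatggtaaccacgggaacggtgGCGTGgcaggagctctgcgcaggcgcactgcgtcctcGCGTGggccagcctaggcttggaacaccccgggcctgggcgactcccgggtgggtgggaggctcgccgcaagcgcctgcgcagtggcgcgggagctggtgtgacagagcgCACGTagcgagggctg
Vegfa: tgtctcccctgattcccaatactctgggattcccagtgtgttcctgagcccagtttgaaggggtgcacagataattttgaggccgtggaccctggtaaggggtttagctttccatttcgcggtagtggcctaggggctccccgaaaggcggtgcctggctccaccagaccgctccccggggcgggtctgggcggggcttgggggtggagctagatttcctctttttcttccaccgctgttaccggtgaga
They lie at chr7:138909520-138909756 (minus strand), chr12:54203875-54204124 (minus), chr8:124949325-124949504 (minus), chr10:59323046-59323295 (plus) and chr17:46032378-46032627 (minus). Bnip3 held 5 matches, of which 2 overlap in the palindrome CACGTG, a word also read by other basic helix-loop-helix factors and found in 7.15% of all windows. P4ha1 held 3, Egln1 2 (the other one, at -68 from the RefSeq start, is not printed) and Egln3 1, far upstream at -229. Vegfa held none in the stretch shown, while the window of an internal start held 2. Of the genes not shown, Adm held 2, Kdm3a 1, and Hif1a 3, of which 2 overlap in CACGTG. None of these genes was higher in both OHT libraries. A match is a description of letters only.

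Facts of the libraries come first. Cbx2 itself read 0.749 and 1.14 TPM in the OHT libraries, against 2.29 and 2.71 TPM in the EtOH libraries, the direction the labels give. On the log2(TPM + 1) scale it stood at -0.85 with an SE of 0.19, and its limma adjusted p of 0.265 did not pass the threshold of 0.05. The embryonic stem cell markers (9 genes, among them Pou5f1, Sox2 and Nanog) were all detected in every library and summed to 12555 and 11271 TPM with OHT, against 9704 and 9622 TPM with EtOH. Most of that difference came from Dppa5a (7089 and 5623 TPM with OHT, against 4733 and 4612 TPM with EtOH), while the libraries of Sox2 overlapped and Utf1 was lower in both OHT libraries. Fibroblast and feeder cell markers summed to 10.6 and 14.1 TPM with OHT, against 8.18 and 7.05 TPM with EtOH. Thy1 supplied most of each sum (7.64 and 10.9 TPM with OHT, against 6.41 and 5.43 TPM with EtOH). Dcn was lower in both OHT libraries, and Postn read 0 in all libraries. Endothelial markers summed to 41.1 and 54.3 TPM with OHT, against 31.7 and 34.9 TPM with EtOH, mostly from Pecam1, which embryonic stem cells also express. Both sums were higher with OHT, and their part in the results was not tested. The OHT replicates lay further apart than the EtOH replicates, with an SD over genes of their log2 difference of 0.35 against 0.18. Over 12016 genes, taken as a description since genes are not independent, longer transcripts read relatively higher in OHT replicate 2 than in OHT replicate 1 (Pearson r = 0.53 with log2 length, Spearman rho = 0.58), and to a smaller extent in EtOH replicate 2 than in EtOH replicate 1 (r = 0.27, rho = 0.36).

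Among the 10 genes, a vessel growth factor, a mitophagy receptor and a feedback hydroxylase stood furthest above EtOH with OHT, while the libraries of the HIF subunit gene overlapped. Vegfa, Bnip3, Egln3, Egln1 and P4ha1 were higher in both OHT libraries than in both EtOH libraries, Ndrg1 was lower in both, and Hif1a, Bnip3l and Kdm3a overlapped. Of the 9 tested, 5 were thus apart and higher and 1 apart and lower, beside 23.1% and 19.4% of all 12029 genes (42.4% in either direction). None passed the limma threshold, beside 0.0416% of all genes, and 3 had an unadjusted p under 0.05, beside 10.5% (6.02% higher and 4.46% lower). Since the choice of genes used these values, nothing is read from the counts. The median log2 fold change of the 9 was 0.27, beside 0.02 over all genes tested, and the single values ran from -0.19 to 1.42. Without OHT replicate 1 the median was 0.38 and 5 of the 9 passed (Vegfa, Bnip3, Egln3, Egln1 and P4ha1, all higher), beside 25.8% of all genes. Without OHT replicate 2 the median was 0.16 and 4 passed (Vegfa, Bnip3 and Egln3 higher, Kdm3a lower), beside 22.2% of all genes; each of these fits takes the spread of the single OHT library from that of the EtOH pair. In bulk libraries fewer expressing cells and less RNA per cell cannot be told apart.

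**Figure D1:**
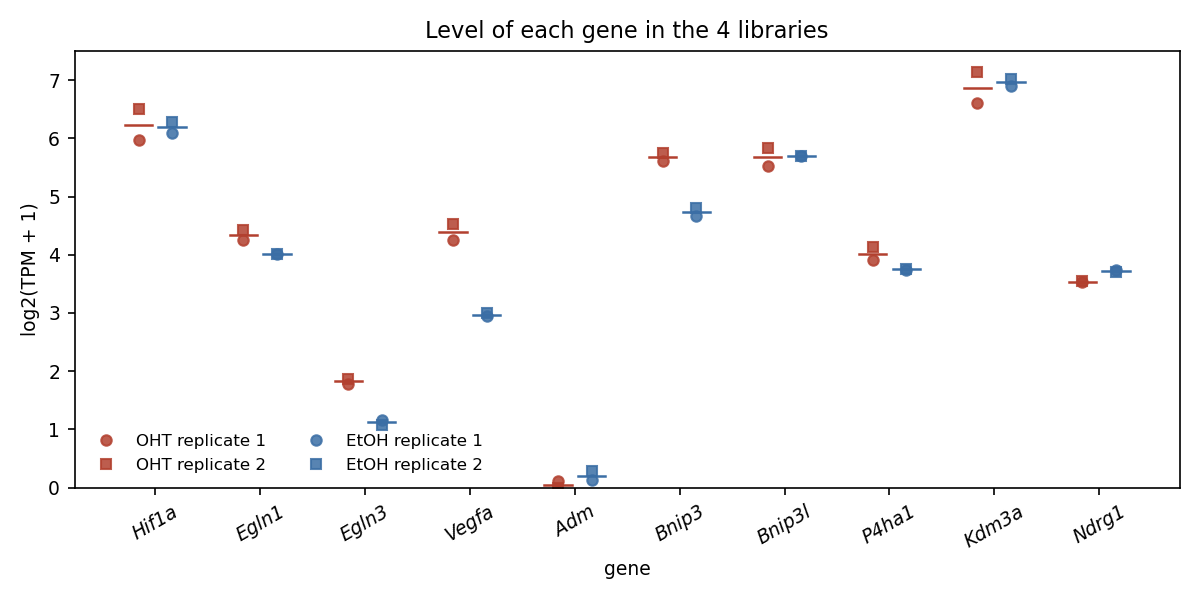
Level of each gene in every library as log2(TPM + 1), with OHT in red left of EtOH in blue; circles are replicate 1, squares replicate 2 and lines group means (n = 2 each). Vegfa, Bnip3, Egln3, Egln1 and P4ha1 have both OHT points above both EtOH points, and Adm lies near 0 throughout.

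Levels differed widely between the genes. TPM corrects for length, but the libraries still differed with length as described above, so the order of the genes is approximate. Kdm3a had the highest level in each group (means 118.55 TPM with OHT and 124 TPM with EtOH), followed by Hif1a and Bnip3l. With OHT the ranges of Bnip3l and Bnip3 overlapped, as did those of Vegfa and Egln1. With EtOH the only neighbours with overlapping ranges were P4ha1 and Ndrg1. Vegfa held the fifth place with OHT and the eighth with EtOH, and Egln3 and Adm were the lowest of the 10 in each group.

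The regulators began with Hif1a (ENSMUSG00000021109.14, GRCm38 chromosome 12, 73901375 to 73947530, plus strand, protein-coding), which encodes the oxygen-regulated subunit HIF-1 alpha. It read 62.1 and 89.5 TPM with OHT, against 67.3 and 77.3 TPM with EtOH. The OHT libraries lay on either side of the EtOH pair, so the groups overlapped, and the log2 fold change was 0.05 (SE 0.19). The sign rested on which library was used: the value was 0.31 without OHT replicate 1, -0.21 without OHT replicate 2 and -0.05 without EtOH replicate 1. Among the 3 alpha subunit genes Hif1a made up 91.4% and 91.0% of the summed TPM with OHT, against 89.8% and 90.9% with EtOH. The paralog Epas1, which encodes HIF-2 alpha, read 5.03 and 7.56 TPM with OHT, against 6.39 and 6.36 TPM with EtOH. Hif1a shares 148 exonic bases with a same-strand protein-coding gene, Gm49321, which read 2.65 and 3.57 TPM with OHT, against 1.35 and 1.33 TPM with EtOH, and reads of that stretch can be split between them. It also shares 330 exonic bases with an opposite-strand gene (Gm15283). The labels do not say whether strand was kept, so reads of the overlapping part cannot be assigned.

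Egln3 and Egln1 encode the oxygen-sensing prolyl hydroxylases PHD3 and PHD2, which are themselves HIF targets and close a feedback loop. Egln3 (ENSMUSG00000035105.6, chromosome 12, 54178981 to 54203860, minus strand) read 2.45 and 2.65 TPM with OHT, against 1.24 and 1.10 TPM with EtOH. The groups did not overlap, and the OHT mean was 2.17 times the EtOH mean. Its log2 fold change of 0.71 (SE 0.17) ranked 164 from the top of 12029 genes and depended on the pseudocount at this low level, with 1.06 at 0.1 and 0.29 at 5. Egln1 (ENSMUSG00000031987.7, chromosome 8, 124908587 to 124949324, minus strand), the main hydroxylase acting on HIF-1 alpha in most cells, read 18.0 and 20.4 TPM with OHT, against 15.2 and 15.2 TPM with EtOH. The groups did not overlap, but the ratio of means was only 1.27 (log2 fold change 0.32, SE 0.15). With the third hydroxylase gene, Egln2, the family summed to 64.6 and 62.0 TPM with OHT, against 56.3 and 57.0 TPM with EtOH. Egln3 supplied 3.79% and 4.28% of that sum with OHT, against 2.21% and 1.94% with EtOH, so most hydroxylase mRNA came from its paralogs in every library. Egln2, which is not usually counted as a HIF target, read 44.2 and 38.9 TPM with OHT, against 39.8 and 40.7 TPM with EtOH, and its groups overlapped.

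The secreted factors Vegfa and Adm lay far apart in level. Vegfa (ENSMUSG00000023951.19, chromosome 17, 46016993 to 46032369, minus strand) encodes the main growth factor for blood vessels. It read 18.1 and 22.2 TPM with OHT, against 6.71 and 6.97 TPM with EtOH. The lowest OHT library was far above the highest EtOH library, and the ratio of means was 2.94. Its log2 fold change of 1.42 (SE 0.18) was the largest of the 9 and ranked 8 among all genes tested. Adm (ENSMUSG00000030790.16, chromosome 7, 110627661 to 110629820, plus strand) encodes the vasodilator peptide adrenomedullin. It was listed at 0.0751 and 0 TPM in the OHT libraries, against 0.0954 and 0.215 TPM in the EtOH libraries. Adm was too low to be tested, and no fold is given.

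The pair Bnip3 and Bnip3l encode related BH3-domain proteins of the outer mitochondrial membrane that recruit the autophagy machinery. Bnip3 (ENSMUSG00000078566.9, chromosome 7, 138890836 to 138909519, minus strand) read 47.9 and 52.6 TPM with OHT, against 24.4 and 26.9 TPM with EtOH. All of the OHT values were higher, with a ratio of means of 1.96 and a log2 fold change of 0.94 (SE 0.13), rank 55 of all genes tested. Bnip3l (ENSMUSG00000022051.16, chromosome 14, 66985239 to 67008877, minus strand) read 45.3 and 56.1 TPM with OHT, against 51.0 and 51.1 TPM with EtOH. The EtOH pair fell between the OHT values, and the log2 fold change was -0.02 (SE 0.14). Without OHT replicate 1 it was 0.13. The pair therefore stood at like levels with OHT (group means 50.3 TPM for Bnip3 and 50.7 TPM for Bnip3l), whereas with EtOH the means were 25.6 and 51.1 TPM. The search found 5 genes with a transcript near-identical to Bnip3 (95.402% to 99.712% identity over the aligned part) and 1 for Bnip3l (99.723%) in GENCODE, none of them with a row in the table. The 99.712% match is Gm45507, an opposite-strand gene at the Bnip3 locus itself that shares 504 exonic bases with it. How the authors' quantification shared reads with them is not given, so both levels carry that uncertainty.

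**Figure D2:**
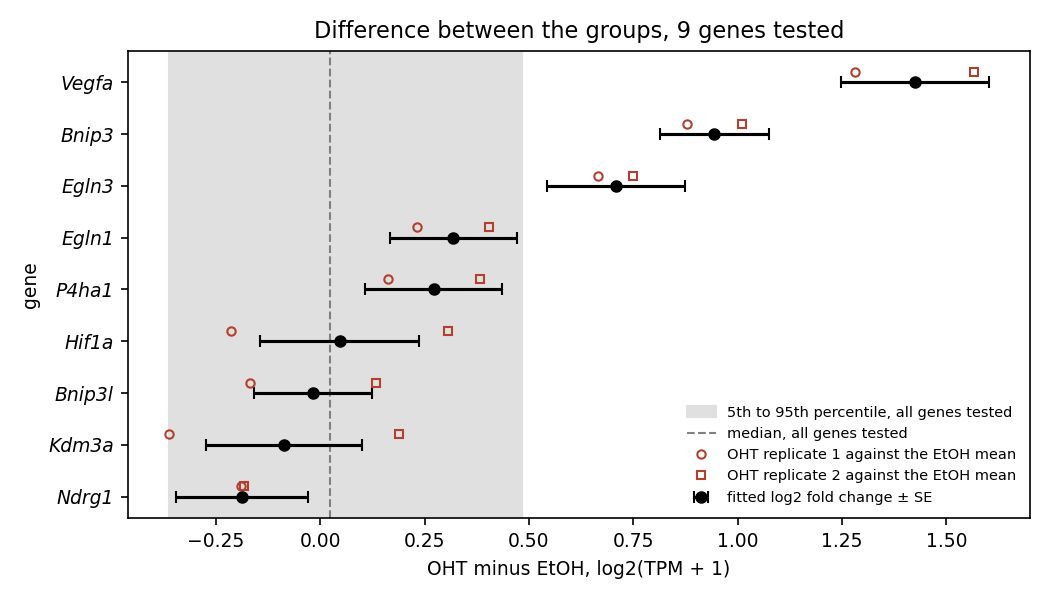
Log2 fold change (OHT minus EtOH on log2(TPM + 1), x axis) of the 9 genes tested with limma's standard error (black), each OHT library against the EtOH mean (open red symbols) and the range of all genes tested from the 5th to the 95th percentile (-0.36 to 0.48, grey). Vegfa, Bnip3 and Egln3 lie right of the grey range, and the OHT libraries of Hif1a, Bnip3l and Kdm3a fall on either side of 0.

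Enzymes and a stress protein made up the rest. P4ha1 (ENSMUSG00000019916.15, chromosome 10, 59323296 to 59373304, plus strand) encodes a catalytic subunit of collagen prolyl 4-hydroxylase. It read 14.0 and 16.5 TPM with OHT, against 12.4 and 12.5 TPM with EtOH, so both OHT libraries were higher by a ratio of means of 1.23 (log2 fold change 0.27, SE 0.16), with 0.38 without OHT replicate 1 and 0.16 without OHT replicate 2. Kdm3a (ENSMUSG00000053470.14, chromosome 6, 71588972 to 71632990, minus strand) encodes a demethylase of H3K9 and is a HIF target that pluripotent cells also express at high level. It read 96.1 and 141 TPM with OHT, against 118 and 129 TPM with EtOH. The OHT values enclosed the EtOH values, and the log2 fold change was -0.09 (SE 0.19), with 0.19 without OHT replicate 1 and -0.36 without OHT replicate 2. Ndrg1 (ENSMUSG00000005125.14, chromosome 15, 66929318 to 66969640, minus strand) encodes a cytoplasmic protein induced by hypoxia and other stresses in many cells. It read 10.6 and 10.7 TPM with OHT, against 12.4 and 12.1 TPM with EtOH. Ndrg1 was the only tested gene of the 10 that was lower in both OHT libraries (log2 fold change -0.19, SE 0.16). It shares 419 exonic bases with an opposite-strand gene (Gm17035) and 137 with another (Gm2895).

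The OHT replicates differed from each other to a different extent for each gene. OHT replicate 2 was above OHT replicate 1 for 9 of the 10, all but Adm, as it was at the median of all genes tested (log2 difference 0.23). That difference was 0.55 for Kdm3a and 0.52 for Hif1a, whose longest transcripts of 4853 and 4724 bases were the longest of the set. It was 0.13 for Bnip3, whose longest transcript of 1756 bases was the shortest of those tested, and 0.01 for Ndrg1, whose transcript of 4049 bases was not short. In OHT replicates 1 and 2, each against the EtOH mean, the log2 difference was 1.28 and 1.57 for Vegfa, 0.88 and 1.01 for Bnip3, and 0.67 and 0.75 for Egln3. After correction of every library for its dependence on transcript length and GC, the log2 fold changes were 1.43 for Vegfa and 1.06 for Bnip3. Both were then under the limma threshold, as 0.374% of all genes were in that fit, and nothing is read from this for genes chosen on the same contrast.

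**Figure D3:**
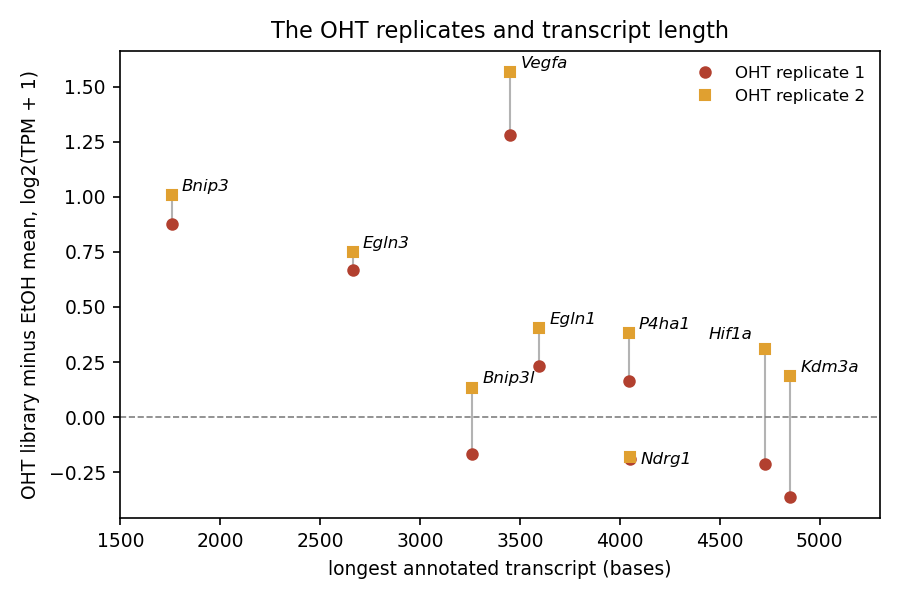
Each OHT library against the EtOH mean (y axis, log2(TPM + 1)) for the 9 genes tested, placed by the length of the longest annotated transcript (x axis, bases). Grey lines join the replicates; the longest are those of Kdm3a (0.55) and Hif1a (0.52), which cross 0, while both points of Vegfa, Bnip3 and Egln3 lie well above it.

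Other genes of the HIF machinery were found on both sides. The lists from here on were chosen with earlier results of these data known, so their counts and medians are given as a description. Of 16 further regulators listed (subunits, hydroxylases, ubiquitin ligase components and coactivators), all 16 were tested and none passed the limma threshold in either direction. At an unadjusted p under 0.05 stood 2 higher and 2 lower, beside 6.02% and 4.46% of all genes, and the median log2 fold change was 0.04. Siah2, a ubiquitin ligase that acts on the hydroxylases, read 8.38 and 9.09 TPM with OHT, against 5.41 and 5.91 TPM with EtOH (log2 fold change 0.55, SE 0.17). Cited2, a HIF-induced competitor for the coactivator that HIF uses, read 30.9 and 35.0 TPM with OHT, against 25.8 and 25.4 TPM with EtOH (0.35, SE 0.14). The ubiquitin ligase components Eloc (-0.38, SE 0.09) and Rbx1 (-0.32, SE 0.10) were lower in both OHT libraries, and both have near-identical copies outside the table. Without OHT replicate 1 or 2 the list had 7 and 5 genes past the threshold, beside 25.8% and 22.2% of all genes.

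Further HIF targets outside glycolysis were followed beside the 10. Of 44 listed, 36 were tested and none passed the limma threshold. At an unadjusted p under 0.05, 9 were higher and 1 was lower, beside 6.02% and 4.46% of all genes. The libraries of 17 were apart and higher and those of 3 apart and lower, beside 23.1% and 19.4%. The median log2 fold change was 0.21, beside 0.02 over all genes tested. Bhlhe40, a repressor that also belongs to the circadian system, read 8.43 and 11.9 TPM with OHT, against 2.45 and 2.78 TPM with EtOH (log2 fold change 1.61, SE 0.22, limma adjusted p = 0.107). Stc2, which encodes the secreted glycoprotein stanniocalcin 2, read 5.20 and 5.88 TPM with OHT, against 1.35 and 1.44 TPM with EtOH (1.45, SE 0.17, adjusted p = 0.0995). Ddit4, an inhibitor of mTOR signalling, read 94.4 and 91.2 TPM with OHT, against 52.5 and 50.6 TPM with EtOH (0.84, SE 0.11, adjusted p = 0.0995). The lysyl oxidase family gene Loxl2 was lower, at 1.35 and 1.44 TPM with OHT, against 2.18 and 2.26 TPM with EtOH (-0.43, SE 0.16). A copy of Loxl2 outside the table is 100.0% identical to it over 2348 bases, so this low value is uncertain. Without OHT replicate 1 or 2, 18 and 12 of the list passed, 5 of the 12 lower, beside 25.8% and 22.2% of all genes. Bhlhe40 and Stc2 passed with the length and GC trend removed, and Bhlhe40 without EtOH replicate 2. Stc2 and Ddit4 are also targets of the stress factor ATF4, and 3 of the 44 stood on the ATF4 list. Without those 3, 6 were higher and 1 lower of 33 at an unadjusted p under 0.05, with a median of 0.20. On the ATF4 list 17 of the 22 tested were higher and none lower at an unadjusted p under 0.05, with a median of 0.56. None of the 10 genes stood on that list. It was put together for this report and makes no claim to be complete, so absence from it is no evidence about ATF4. Whether the 10 genes or the other HIF targets answered to ATF4 was not tested.

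In the glycolytic branch of the same pathway, 11 of 22 genes were higher and none lower at an unadjusted p under 0.05, beside 6.02% and 4.46% of all genes, and none passed limma's threshold. The median was 0.31. Tpi1, the triosephosphate isomerase gene, to which a short transcript outside the table is near-identical, read 442 and 439 TPM with OHT, against 235 and 242 TPM with EtOH. The lactate exporter gene Slc16a3 read 64.3 and 72.1 TPM with OHT, against 33.3 and 35.6 TPM with EtOH. Whether the 10 genes differed from the glycolytic ones was not tested.

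**Figure D4:**
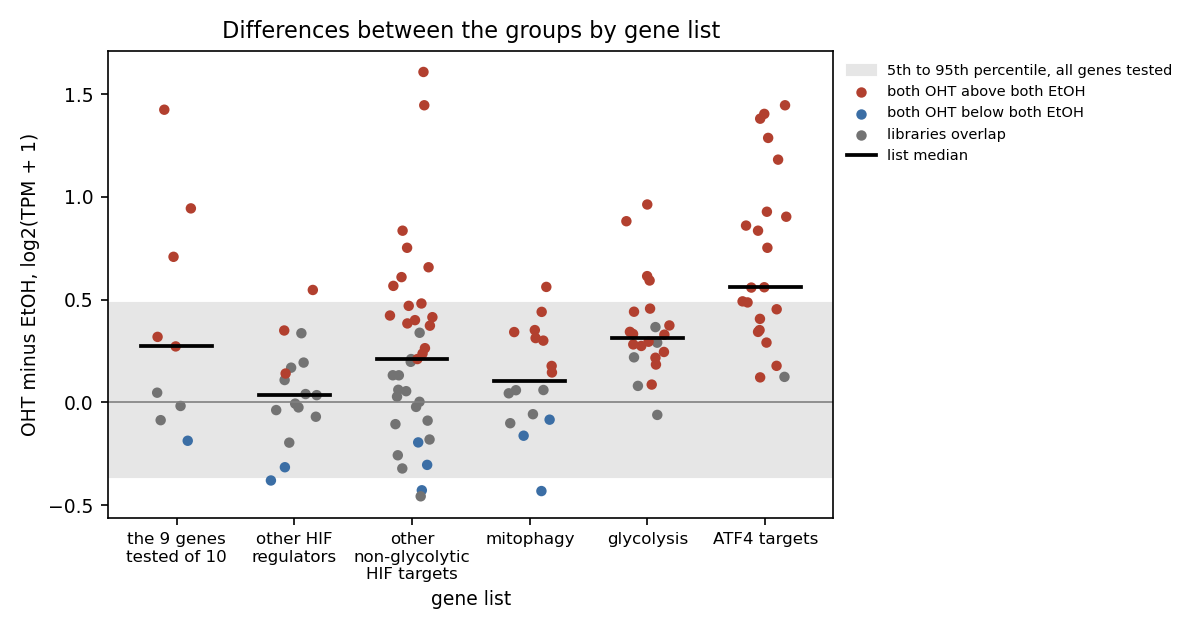
Log2 fold change (OHT minus EtOH on log2(TPM + 1), y axis) of every tested gene of 6 lists (x axis); red marks genes with both OHT libraries above both EtOH libraries, blue the opposite, grey overlap, black bars the list medians, and the shaded band the 5th to 95th percentile of all genes tested. The medians are 0.27 for the 9 genes tested of the 10, 0.04 for the other regulators, 0.21 for the other targets, 0.10 for mitophagy, 0.31 for glycolysis and 0.56 for ATF4 targets.

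The partners of Bnip3 in mitophagy were followed as a list of 16, all tested, of which none passed limma's threshold, 5 were higher and 1 was lower at an unadjusted p under 0.05, beside 6.02% and 4.46% of all genes. The autophagy genes Gabarap (log2 fold change 0.31, SE 0.10) and Sqstm1 (0.30, SE 0.10) and the mitochondrial kinase gene Pink1 (0.44, SE 0.16) were among the higher ones. Sqstm1 shares 583 bases with Mrnip, and 2 short transcripts identical to parts of Pink1 lie outside the table. Fundc1, another hypoxia-linked mitophagy receptor, was lower at 37.8 and 40.7 TPM with OHT, against 52.5 and 54.0 TPM with EtOH (-0.43, SE 0.12). The list's median was 0.10. Mitochondrially encoded mRNAs made up 2.93% and 3.38% of all TPM with OHT, against 4.26% and 4.35% with EtOH, and any link to these genes was not tested.

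Close relatives of the 10 genes were followed as a list of their own. Of 14 paralogs, 13 were tested, none passed limma's threshold, and 3 were higher and none lower at an unadjusted p under 0.05 (beside 6.02% and 4.46% of all genes), with a median of 0.05. Vegfb, a relative of Vegfa that is not usually induced by hypoxia, read 38.6 and 40.8 TPM with OHT, against 27.9 and 28.0 TPM with EtOH (log2 fold change 0.49, SE 0.12). Adm2, which encodes a second adrenomedullin-like peptide, read 4.75 and 3.97 TPM with OHT, against 2.06 and 1.38 TPM with EtOH (0.99, SE 0.21), so this relative was detected where Adm was near 0. Ndrg2 stood higher (0.42, SE 0.17) while Ndrg1 stood lower.

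The genes whose libraries most resembled the mean profile of the 9 tested genes, by Euclidean distance over the 4 libraries, were Dtx1, Mmp15, Ikbip, Slc48a1 and Rtl8b, at distances of 0.0127 to 0.0249 on the log2(TPM + 1) scale. That mean profile stood at 0.25 in OHT replicate 1 and 0.51 in OHT replicate 2 relative to the EtOH mean. Each of the 5 had a log2 fold change between 0.37 and 0.38, which follows from how they were picked, and none passed limma's threshold. Rtl8b is 99.577% identical to Rtl8a over the aligned part, so its value is uncertain.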

How the data were processed

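Poly(A)-selected RNA was sequenced in 4 libraries. The authors deposited TPM, a share of transcripts corrected for transcript length and scaled to the same total in each library. Trim Galore and Salmon with GRCm38 (mm10) were used, per the submitters' processing notes. Versions, order and annotation release: not given in the sources used here. A further 2 columns, which match none of the samples, were left out. TPM keeps no depth, so library depth is unknown and counting intervals could not be given.

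Values were analysed as log2(TPM + 1) for the 12029 genes that averaged 1 TPM or more. They were fitted with limma 3.58.1 in R 4.3.3 (a linear model, moderated with a trend of variance on mean; tests were two-sided, on 2 residual and 4.013 prior degrees of freedom). Benjamini-Hochberg adjustment ran over every gene tested, and 0.05 was the threshold. An exact permutation test of 2 against 2 cannot go below 0.333, so none was run.

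The members and lists were chosen with earlier results of these data known. The genes named are the 10 members, some of the up to 3 genes per direction with the smallest p that a rule gave from each other list, the defining markers, Cbx2, and the 5 genes nearest to the members' mean profile. Epas1 and Egln2, and any gene marked so in the text, were named outside that rule after their values were seen. Where a gene name had more than 1 row, the row of higher mean was used. Transcript length and GC content are those of the longest GENCODE M21 transcript (22213 identifiers matched without version). Near-identical copies are blastn 2.17.0 hits at 95% identity over 50% of the shorter transcript. Promoter sequences are RefSeq's, on GRCm38.p6. Plots were drawn with matplotlib 3.10.9.

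Alternatives were pseudocounts of 0.1, 0.5 and 5, no filter, a minimum of 5 TPM, median of ratios and quantile scaling, limma without a trend or with robust moderation, a replicate block, correction of every library for transcript length and GC content (natural splines), both of these together, and each library left out in turn. Leaving ATF4 targets out of the wider HIF list was chosen after seeing the data.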

Additional observations from a re-analysis of the deposited data

How the results depend on the processing

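None of the 9 tested genes passed the threshold under the 3 other pseudocounts, without a filter, at 5 TPM (where 8 were tested), under either scaling, without a trend, with robust moderation, or without EtOH replicate 1 or 2. Over all genes 5 passed, against 0 without a filter (limma; 1838 at an unadjusted p under 0.05), 3 under median of ratios scaling, quantile normalization or no trend, and 45 after correction for length and GC; the cause was not tested. That correction brought 2 of the 9 genes and 2 of the other targets past the threshold. Leaving out single libraries gave 30 to 3104 genes in all, 0 to 5 of the 9, 0 to 7 of the other regulators and 0 to 18 of the other targets. The median of the set was 0.16 without a filter, which adds Adm, and at 5 TPM, which drops Egln3.

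Shared replicate numbers do not pair these samples by any label, and with 2 per group the check is weak (correlation of same-numbered deviations 0.29). With a replicate block 474 genes passed, with 3 of the 9 (Vegfa, Bnip3 and Egln3), 1 other regulator and 5 other targets. The block together with the correction gave 647, 3, 0 and 6.

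Directions turned for Hif1a (from -0.21 to 0.31 with 1 library left out, and -0.05 without EtOH replicate 1), Bnip3l (0.090 after correction for length and GC, with or without the block, and from -0.17 to 0.13 with 1 library left out) and Kdm3a (from -0.36 to 0.19 with 1 library left out). Vegfa ranged from 1.08 to 1.57, Bnip3 from 0.85 to 1.06 and Egln3 from 0.29 to 1.06. TPM keeps no depth, so what depth limits cannot be stated.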

Other observations

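Receptors for the secreted factors stood at unlike levels. Of 12 genes for VEGF and adrenomedullin receptors and related ligands, 9 were tested and none passed limma's threshold. At an unadjusted p under 0.05, 2 were higher and none lower (beside 6.02% and 4.46% of all genes), and the median log2 fold change was 0.30. Those 2 were the ligand genes Vegfb and Adm2, already counted among the paralogs above, and no receptor gene was under that level. The libraries of 6 of the 9 were apart and higher and those of 0 apart and lower, beside 23.1% and 19.4% of all genes. Among these 6 were the receptor or receptor subunit genes Kdr, Flt4 and Ramp3. Nrp2, a VEGF co-receptor, read 15.0 and 20.2 TPM with OHT, against 14.1 and 15.3 TPM with EtOH. Kdr, the main signalling receptor for VEGF-A, read 1.15 and 1.88 TPM with OHT, against 1.08 and 1.08 TPM with EtOH. Calcrl, which encodes a subunit of the adrenomedullin receptor, read 0.0868 and 0.0435 TPM with OHT, against 0.0340 and 0.0798 TPM with EtOH. Nrp2, Kdr, Calcrl, Flt4 and Ramp3 were chosen after their values were seen.

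Of 9 collagen-modifying enzymes listed beside P4ha1, 8 were tested, none passed limma's threshold or an unadjusted p of 0.05, and the median log2 fold change was 0.04. The libraries of 3 were apart and lower with OHT (P4hb, Plod3 and Ppib, named after their values were seen) and those of 0 apart and higher, beside 19.4% and 23.1% of all genes.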
